A study of Mus musculus with 21 samples.

Results

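Wild-type (WT) mouse mammary organoids at day 14 of neuT activation were compared with WT organoids at day 0. Both groups carry the normal Mre11 allele and were labelled as primary mammary organoids of mammary epithelia. NeuT is a mutant rat Erbb2 gene whose product is a constitutively active receptor tyrosine kinase. The comparison uses 6 of the 21 libraries of the study, which were chosen by their labels: 3 of day 0 and 3 of day 14. The other libraries are WT organoids at day 28, organoids homozygous for the Mre11 ATLD1 allele (ATLD) at the same 3 days, and a further sequencing run of replicate 1 of each WT day. The labels do not say what drives neuT, or whether the replicates come from separate animals or cultures. The p-values therefore describe only scatter between libraries, which could be technical. That scatter was estimated over the 18 original libraries of all genotypes and days, not over these 6 alone. No WT culture without neuT at day 14 is among the samples, and time in culture and neuT therefore cannot be told apart in any value below.

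The mammary epithelium is a bilayer of luminal cells, some of which make milk, and of basal cells, which combine keratin filaments of stratified epithelium with contractile smooth muscle proteins. ERBB2 signals through the RAS-ERK and PI3K pathways, and activated forms of it transform mammary epithelium. Organoids are grown as small closed bodies, and hypoxia-inducible factors (HIF), transcription factors stabilised at low oxygen, are known to switch on glycolysis and blood vessel growth factors.

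The 3 day 0 libraries held 43114303, 30905703 and 43301837 counts and the 3 day 14 libraries 50879106, 40260774 and 43834112 counts. Levels are given as counts per 1000000 counts after TMM scaling (CPM), in the order of replicates 1, 2 and 3. No 2 libraries agreed within sampling noise: the lowest chi-square per degree of freedom over genes, 2.83, was that of day 14 replicates 1 and 3. Day 14 replicate 2 stood apart from replicates 1 and 3 by its counts of GC-rich genes. Relative to the mean of the day 0 libraries, the 1266 genes with at least 57.6% GC lay below the 1266 genes with at most 41.1% GC by a median log2 of -0.995 in day 14 replicate 1 and -0.969 in replicate 3, while replicate 2 had 0.564. The day 0 libraries had -0.289, 0.11 and 0.181. The resequenced run of the day 14 replicate 1 culture had 0.714 and that of day 0 replicate 1 had 0.57. Over genes, the SD of the log2 ratio between the 2 runs of the day 14 replicate 1 culture was 0.609, against 0.111 between day 14 replicates 1 and 3 and 0.157 between replicate 2 and the resequenced run. Mitochondrial transcripts made up 4.44%, 2.87% and 4.37% of the day 14 counts and 3.06%, 2.71% and 2.52% of those of day 0. Some results are therefore also given with a fit that removes a smooth GC trend from each library (the GC offset), with the resequenced runs, or without replicate 2. Where none of these is named, a value is from the fit without the offset, also for GC-rich and GC-poor genes.

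Epithelial markers were high at both days. Epcam, an epithelial adhesion protein, was at 604, 662 and 639 CPM at day 0 and 620, 685 and 614 CPM at day 14. Cdh1, E-cadherin, was at 783, 857 and 850 CPM and then at 729, 818 and 722 CPM. Neither was called, and of the other markers Krt5 and Krt14 rose and Krt8, Krt18, Cldn4 and Cldn7 fell. The summed level of the 8 epithelial markers was 4327 to 5268 CPM at day 0 and 5419 to 11595 CPM at day 14, where replicate 2 was the highest, and most of it was Krt5 and Krt14. The 9 fibroblast markers summed to 50.1 to 56.9 CPM and then to 18.5 to 20.9 CPM. The 9 macrophage and myeloid markers summed to 6.6 to 11.7 CPM at day 0 and to 7.05 to 7.52 CPM at day 14. Most of it was Lyz2 and Cd68, and the resequenced runs of replicate 1 gave sums of 2.32 and 3.06 CPM. Among these markers, the leukocyte gene Ptprc did not exceed 0.117 CPM in any of the 6 libraries. Mouse Erbb2 was at 77.3, 91.1 and 98.9 CPM at day 0 and at 68.5, 138 and 72.2 CPM at day 14, a log2 change of 0.06 ± 0.26 (adjusted p = 0.89) with overlapping groups. The resequenced runs of replicate 1 gave 111 and 146 CPM, and the sources used here do not say how transgene reads were assigned. Mre11a was at 58.2, 54.1 and 53 CPM and then at 56.1, 48.6 and 57.4 CPM, and it was not called either (adjusted p = 0.868).

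Of 18684 genes tested, 5666 (30.3%) passed an adjusted p under 0.05 in edgeR's quasi-likelihood test with Benjamini-Hochberg adjustment. The calls were evenly split, with 2840 genes (15.2%) higher and 2826 (15.1%) lower at day 14. All counts of called list members below are to be read beside these shares. By at least 2-fold, 1283 genes (6.87%) were higher and 1548 (8.29%) were lower. The falls reached further than the rises in number: 754 genes fell and 473 rose by at least 4-fold, and 193 fell and 99 rose by at least 16-fold. The median log2 change of all tested genes was 0.01. With the GC offset, 3195 genes (17.1%) were called higher and 3684 (19.7%) lower. Of the 5666 calls, 5298 were made again in the same direction and 0 in the other direction, and 2795 of the 2831 calls of at least 2-fold were made again. The 3 libraries of one day lay entirely above or below those of the other for 42.6% of the genes tested. In the resequenced pair of replicate 1, 2781 of these 2831 genes had a change of the same sign.

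**Figure D1:**
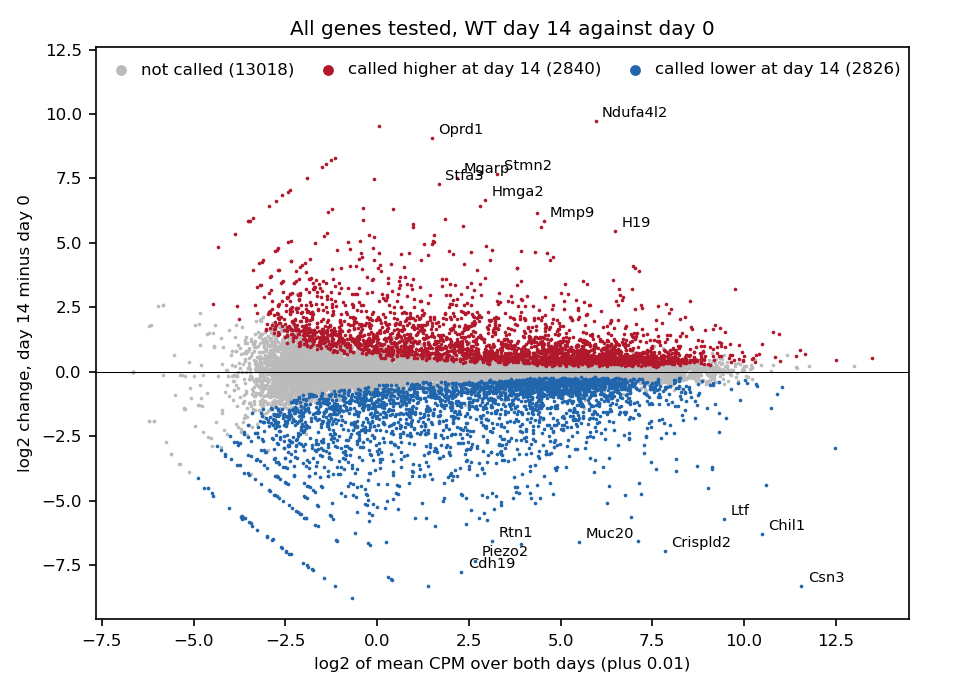
Log2 change from WT day 0 to day 14 against the log2 of the mean CPM of both days for the 18684 genes tested. Red points are the 2840 genes called higher and blue points the 2826 called lower; Csn3, Chil1, Crispld2 and Ltf lie far below 0 at high abundance, and Ndufa4l2 and H19 lie far above it.

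Genes of luminal milk-making cells fell. Of 15 tested genes of milk and secretory differentiation 14 fell and 1 rose, and of 13 tested luminal progenitor genes 12 fell and none rose. The median log2 changes were -2.35 and -2.59, and both counts stand against 15.1% of all genes called lower. Leaving out day 14 replicate 2, 1 progenitor gene was called higher and 11 were called lower. RNA was taken from whole organoids, so that fewer cells of a type and less RNA per cell cannot be told apart.

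Csn3, kappa-casein, which keeps milk micelles in suspension, was at 6612, 5675 and 5813 CPM at day 0 and at 20, 13.4 and 22.8 CPM at day 14. The log2 change was -8.33 ± 0.25 (adjusted p = 2.57e-13), a 321-fold lower level. Csn1s1, an alpha-casein, went from 40.1, 36.2 and 40.6 CPM to 2.19, 1.31 and 2.01 CPM. The low caseins Csn1s2a and Csn1s2b had 0 counts in all 3 day 14 libraries, from at most 0.332 and 0.622 CPM at day 0. Prlr, the prolactin receptor, fell from 207, 202 and 196 CPM to 37.2, 25.5 and 36.3 CPM (log2 -2.61 ± 0.21), and Stat5a, the transcription factor that acts below it, fell by 0.84 on the log2 scale. Mfge8, a milk fat globule protein, fell by 2.35 and Xdh, the xanthine oxidoreductase of the milk fat droplet, by 1.23. The exception was Spp1, osteopontin, a secreted phosphoprotein of milk and bone. It rose from 157, 158 and 198 CPM to 1697, 1405 and 1580 CPM (log2 3.19 ± 0.15, adjusted p = 2.79e-11).

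Elf5, the transcription factor of secretory luminal cells, was at 277, 265 and 263 CPM at day 0 and 14.1, 10.4 and 15.8 CPM at day 14. Its log2 change was -4.32 ± 0.15 (adjusted p = 9.06e-13), and every day 14 library lay far below every day 0 library. Kit, a receptor tyrosine kinase that marks luminal progenitors, fell from 271, 285 and 273 CPM to 31.8, 26.9 and 35.3 CPM. Sox10, a transcription factor of mammary progenitors and of glia, fell from 121, 159 and 165 CPM to 2.91, 6.84 and 3.28 CPM (log2 -5.10 ± 0.32). Smaller falls were those of Gabrp (-0.92), Krt15 (-1.0), Lbp (-0.50) and Ehf (-0.42).

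Secreted defence proteins followed the same direction. Of 14 tested members 9 fell and none rose, with a median log2 change of -1.57. Chil1, a chitinase-like glycoprotein, went from 2610, 2728 and 3156 CPM to 36.6, 30.4 and 39.8 CPM (log2 -6.31 ± 0.19). From the progenitor list, Ltf, the iron-binding lactoferrin, went from 1487, 1400 and 1272 CPM to 27.2, 25.2 and 26.1 CPM, and Lcn2, which binds bacterial siderophores, from 2653, 2960 and 3223 CPM to 131, 154 and 137 CPM. Pigr, which carries antibodies across the epithelium, fell by 4.71, and the acute-phase genes Saa1 and Saa2 by 4.05 and 5.08. Complement C3, Tlr2 and Wfdc2 were not called, with log2 values of -0.15, 0.05 and 0.18.

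Of 13 hormone-sensing luminal genes 4 rose (30.8%) and 6 fell (46.2%), against 15.2% and 15.1% of all genes. Areg, given with the ERBB ligands below, was among those that rose, and the others that rose are not named. Cited1, a cofactor of estrogen receptor, fell by 1.25 and Gata3, a luminal transcription factor, by 1.03, and Esr1, the estrogen receptor itself, fell by 0.62. Pgr, the progesterone receptor, was at 44.1, 41.3 and 43.7 CPM and then at 45.8, 31.2 and 48.2 CPM and was not called. The median of the list was -0.04, and it lay between -0.33 and, without day 14 replicate 2, 0.13 under the alternatives.

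The 4 keratins of simple luminal epithelium all fell, Krt7 by 2.51, Krt19 by 2.06, Krt18 by 1.40 and Krt8 by 1.29 on the log2 scale. All 4 fell with the GC offset as well. Their median was -1.73, and it was -1.57 with the GC offset and -2.22 without day 14 replicate 2. With that replicate as the only day 14 library it was -1.21. Keratins of the basal layer rose instead. Krt5 went from 736, 965 and 1009 CPM to 1960, 4066 and 1891 CPM (log2 1.55 ± 0.25, adjusted p = 1.36e-04) and Krt14 from 834, 1119 and 1153 CPM to 1800, 5160 and 1719 CPM (log2 1.48 ± 0.34, adjusted p = 0.00283). All day 14 libraries lay above all day 0 libraries for both genes, but replicate 2, the library with the highest counts of GC-rich genes, was more than 2-fold above the others. The resequenced runs went from 1113 to 4271 CPM for Krt5 and from 1337 to 5072 CPM for Krt14. Trp63, the transcription factor of basal cells, was lowest in replicate 2 among the day 14 libraries. It rose from 127, 123 and 122 CPM to 250, 209 and 245 CPM (log2 0.92 ± 0.14).

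**Figure D2:**
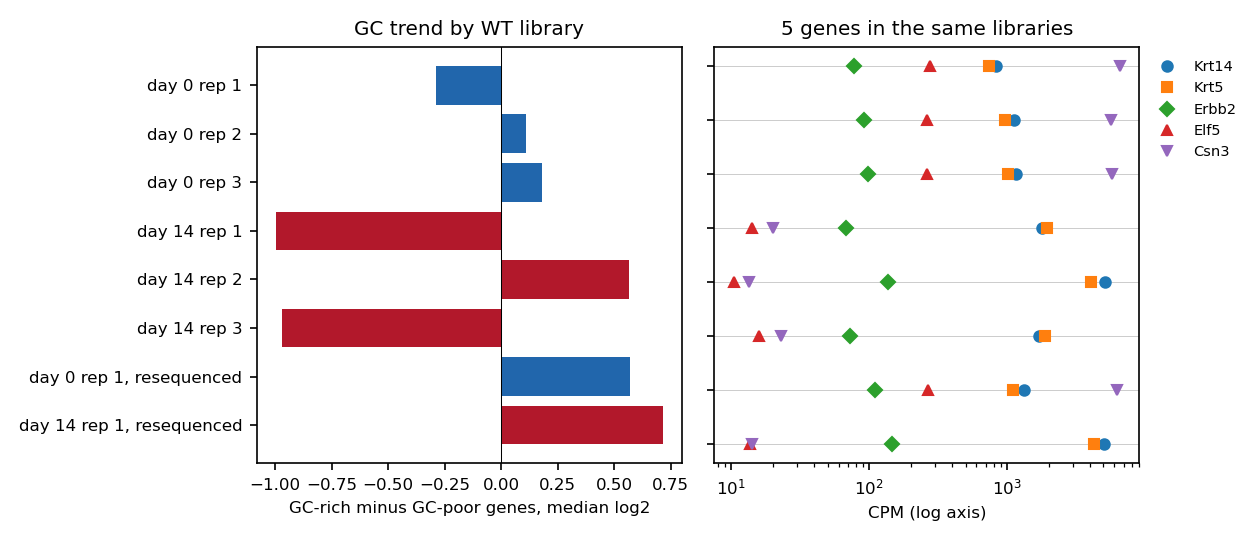
Left, median log2 difference between GC-rich and GC-poor genes of each WT run relative to the mean of the day 0 libraries; day 14 replicates 1 and 3 lie near -1 and the other runs between -0.289 and 0.714. Right, the CPM of 5 genes in the same runs on a log axis: Csn3 and Elf5 were lower in every day 14 run than in every day 0 run, Krt14 and Krt5 were higher, and Erbb2 followed the GC trend within day 14.

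In all, 8 of 13 tested genes of basal identity rose and none fell, with a median log2 change of 0.76. Without day 14 replicate 2, 5 were called higher, and without day 0 replicate 1, 4. The hemidesmosome genes were split: Col17a1 rose by 1.17 and Itga6 by 0.62, while Itgb4 (0.28) and the laminin genes Lama3 (0.59) and Lamb3 (0.45) were not called. Snai2, a transcription factor of basal cells, rose by 0.76 and Cdh3, P-cadherin, by 0.86.

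The contractile program of the basal cell moved the other way. Of 13 tested smooth muscle genes 10 fell and none rose, with a median log2 change of -1.92. Acta2, smooth muscle actin, went from 270, 295 and 276 CPM to 8.31, 13.0 and 10.4 CPM (log2 -4.73 ± 0.17, adjusted p = 1.19e-12). Tagln, Cnn1 and Lmod1, which bind or cap actin filaments, fell by 4.46, 4.31 and 4.21. Oxtr, the oxytocin receptor through which milk ejection is triggered, fell from 93.6, 86.6 and 90.5 CPM to 38.1, 35.8 and 42.4 CPM. Cald1 (0.12), Smtn (0.02) and Tpm2 (-0.22) were not called.

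Most envelope and desmosome genes of stratified, skin-like epithelium rose, as did some of its keratins. Of 20 tested genes of the cornified envelope and desmosome 14 rose and none fell, with a median log2 change of 1.23, and with the GC offset 16 rose. The counts were 15 higher and 1 lower without day 14 replicate 2. Krt6a, a keratin of activated epidermis, went from 38.9, 41.3 and 42.7 CPM to 208, 261 and 196 CPM (log2 2.44 ± 0.15), and its partner Krt16 from 1.43, 1.58 and 1.87 CPM to 22.5, 35.6 and 20.8 CPM (log2 4.01 ± 0.25). Sprr1a, a precursor of the cornified envelope, rose by 3.35 and Calml3, an epithelial calmodulin-like protein, by 2.59. Among the cadherins of the desmosome, Dsc3 rose by 2.97, Dsg3 by 2.14, Dsc2 by 1.42 and Dsg2 by 0.51. Dsg3 went from 125, 122 and 125 CPM to 589, 469 and 579 CPM, and its groups were well apart. Krt10, the main keratin of cornifying epidermis, stayed low, at 3.61, 3.45 and 3.47 CPM and then at 3.28, 3.70 and 3.47 CPM. Krt80 fell by 1.17, and in all 5 of the 10 tested keratins of this kind rose and 1 fell. Without day 0 replicate 1 or without day 14 replicate 1, 3 of them were called higher.

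**Figure D3:**
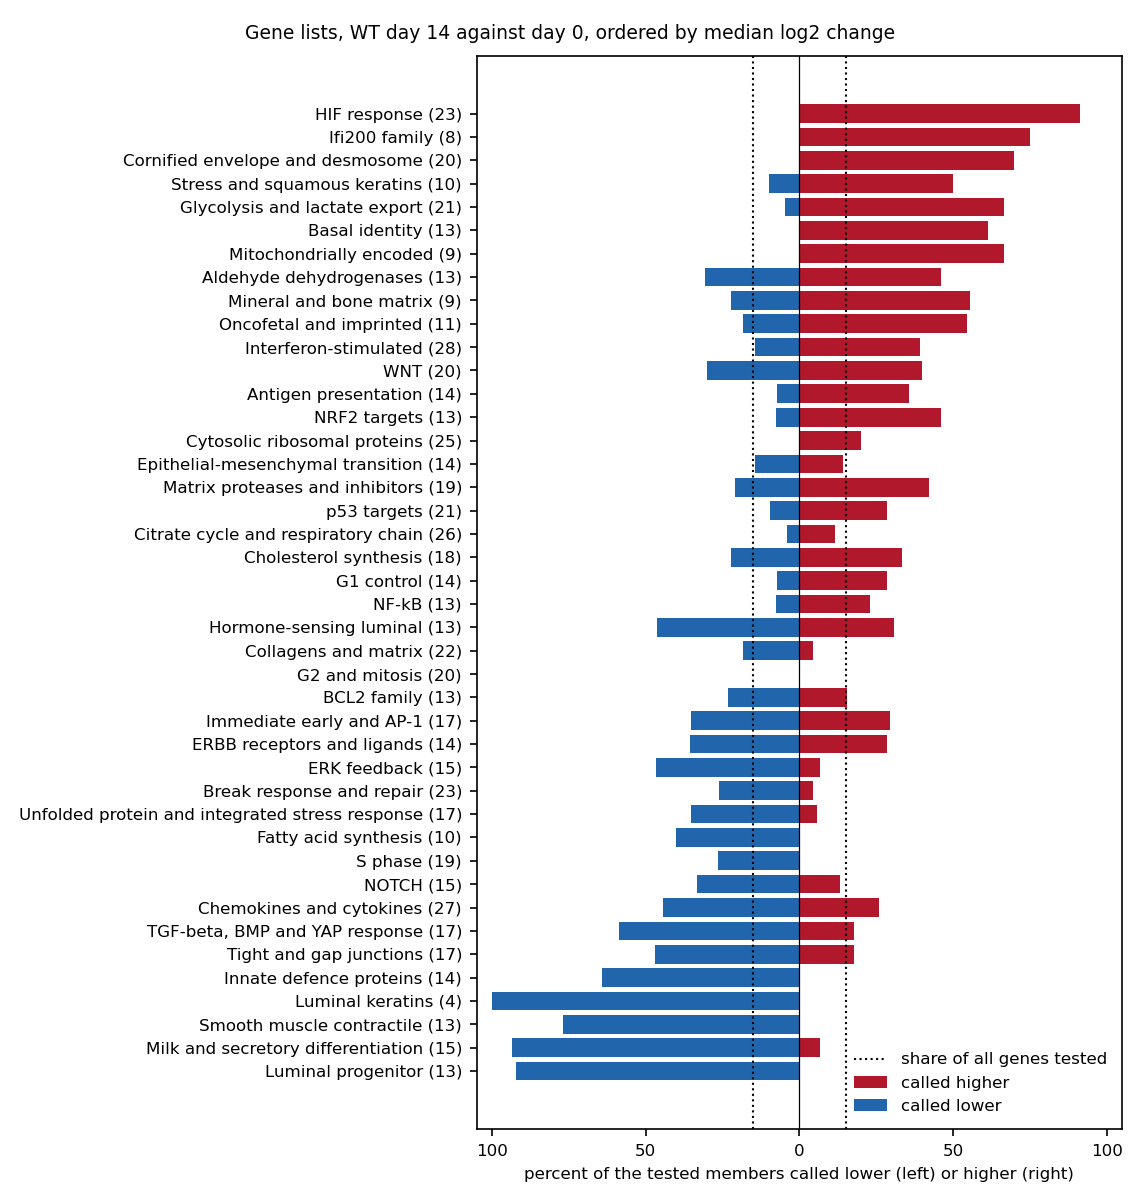
Percent of the tested members of each of the 42 gene lists called lower (blue, to the left) or higher (red, to the right) at day 14, with the number tested in brackets and the lists ordered by median log2 change. Dotted lines give the shares over all genes tested, 15.1% lower and 15.2% higher; HIF response genes are at the top, and luminal progenitor and milk genes at the bottom.

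Genes of the response to low oxygen rose nearly throughout. Of 23 tested HIF response genes 21 rose and none fell, against 15.2% of all genes called higher, and the median log2 change was 1.76. With the GC offset 20 rose and Lox, which crosslinks collagen, fell. Vegfa, the growth factor of blood vessels, went from 14.0, 15.5 and 15.5 CPM to 221, 301 and 210 CPM (log2 4.02 ± 0.16, adjusted p = 5.14e-12). Ndufa4l2, a mitochondrial protein that lowers respiration at low oxygen, went from 0.0622, 0.0292 and 0.316 CPM to 91.0, 195 and 86.3 CPM (log2 9.72 ± 0.75, adjusted p = 2.10e-08). This was the largest rise named, and the resequenced runs gave 0.159 and 237 CPM. Bnip3, which marks mitochondria for removal, went from 7.36, 8.39 and 7.70 CPM to 98.5, 78.3 and 93.0 CPM. Angptl4, a secreted inhibitor of lipoprotein lipase, went from 15.9, 19.4 and 21.2 CPM to 159, 204 and 156 CPM. Car9, a carbonic anhydrase of the cell surface, went from 11.7, 13.7 and 15.2 CPM to 69.7, 89.6 and 67.9 CPM. P4ha1, which hydroxylates proline in collagen, went from 23.1, 23.7 and 24.2 CPM to 166, 147 and 164 CPM (log2 2.75 ± 0.12). The oxygen sensors Egln1 and Egln3, the hydroxylases that tag HIF for destruction, rose by 1.19 and 0.84, and Pdk1, which keeps pyruvate out of the citrate cycle, rose by 1.5. Lox (-0.41) and Ccng2 (0.26) were not called.

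HIF binds DNA at a short core, ACGTG, read on either strand. The windows from 250 bases before to 50 bases after the RefSeq start of a gene (build GRCm38.p6) held the core in 9 of 16 HIF response genes that had a window (56.2%) and in 10 of 20 glycolysis genes (50%), and in 2953 of 12106 tested genes (24.4%). Among genes called by at least 2-fold, the core was in 20.2% of the windows of those that rose and 18.8% of those that fell. The 250 bases before the start of 4 genes that rose are shown, 5′ to 3′ on the strand of the gene, with the core on either strand in capitals. They come from chr11:120948817-120949066 (plus strand) for Slc16a3, chr7:138909507-138909756 (minus strand) for Bnip3, chr4:43506776-43507025 (plus strand) for Car9 and chr10:59323046-59323295 (plus strand) for P4ha1. In Bnip3 the cores of both strands overlap. All the examples hold the core, while the 250 bases before the start of some other HIF response genes, among them Vegfa, Adm and Pdk1, held no match. A match describes the letters of the window and is no measurement of binding.
Slc16a3: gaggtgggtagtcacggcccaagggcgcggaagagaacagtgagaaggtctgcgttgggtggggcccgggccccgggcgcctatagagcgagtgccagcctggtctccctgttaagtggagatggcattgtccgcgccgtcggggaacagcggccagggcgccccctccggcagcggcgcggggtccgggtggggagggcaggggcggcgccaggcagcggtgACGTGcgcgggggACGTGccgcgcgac
Bnip3: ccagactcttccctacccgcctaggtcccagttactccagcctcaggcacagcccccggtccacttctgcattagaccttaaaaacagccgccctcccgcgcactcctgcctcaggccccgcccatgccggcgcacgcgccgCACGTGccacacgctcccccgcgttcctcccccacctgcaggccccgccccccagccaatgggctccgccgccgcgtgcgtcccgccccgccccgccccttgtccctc
Car9: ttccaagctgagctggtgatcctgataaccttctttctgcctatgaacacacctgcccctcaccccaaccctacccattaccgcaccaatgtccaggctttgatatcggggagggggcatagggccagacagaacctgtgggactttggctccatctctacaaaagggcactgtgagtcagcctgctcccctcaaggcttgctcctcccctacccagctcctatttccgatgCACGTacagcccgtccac
P4ha1: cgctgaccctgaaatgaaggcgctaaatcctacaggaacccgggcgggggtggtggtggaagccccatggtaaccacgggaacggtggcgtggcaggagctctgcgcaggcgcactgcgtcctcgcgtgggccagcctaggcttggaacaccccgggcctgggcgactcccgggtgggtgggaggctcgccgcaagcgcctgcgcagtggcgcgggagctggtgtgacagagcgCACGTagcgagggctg

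Glycolysis genes rose with them, by less. Of 21 tested genes 14 rose and 1 fell, with a median log2 change of 0.81, and with the GC offset 19 rose. Pfkp, a phosphofructokinase, went from 91.3, 95.7 and 97.5 CPM to 618, 677 and 634 CPM (log2 2.76 ± 0.12) and Pgk1, phosphoglycerate kinase, from 80.2, 75.7 and 75.7 CPM to 335, 276 and 317 CPM (log2 2.0 ± 0.12). Slc16a3, the lactate exporter MCT4, went from 0.456, 0.584 and 0.652 CPM to 26.5, 71.7 and 23.7 CPM (log2 6.17 ± 0.56), with replicate 2 the highest. Ldha, which makes lactate, rose by 0.66 and Hk2, an inducible hexokinase, by 1.01. Aldoc, an aldolase isoform, fell by 0.97. Slc2a1, the main glucose transporter, was at 69.0, 90.3 and 93.7 CPM and then at 83.5, 175 and 81.9 CPM, and was called higher with the GC offset only (log2 0.43 without and 0.52 with it). The same held for Pfkl, Pfkm, Pfkfb4 and Aldoa.

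**Figure D4:**
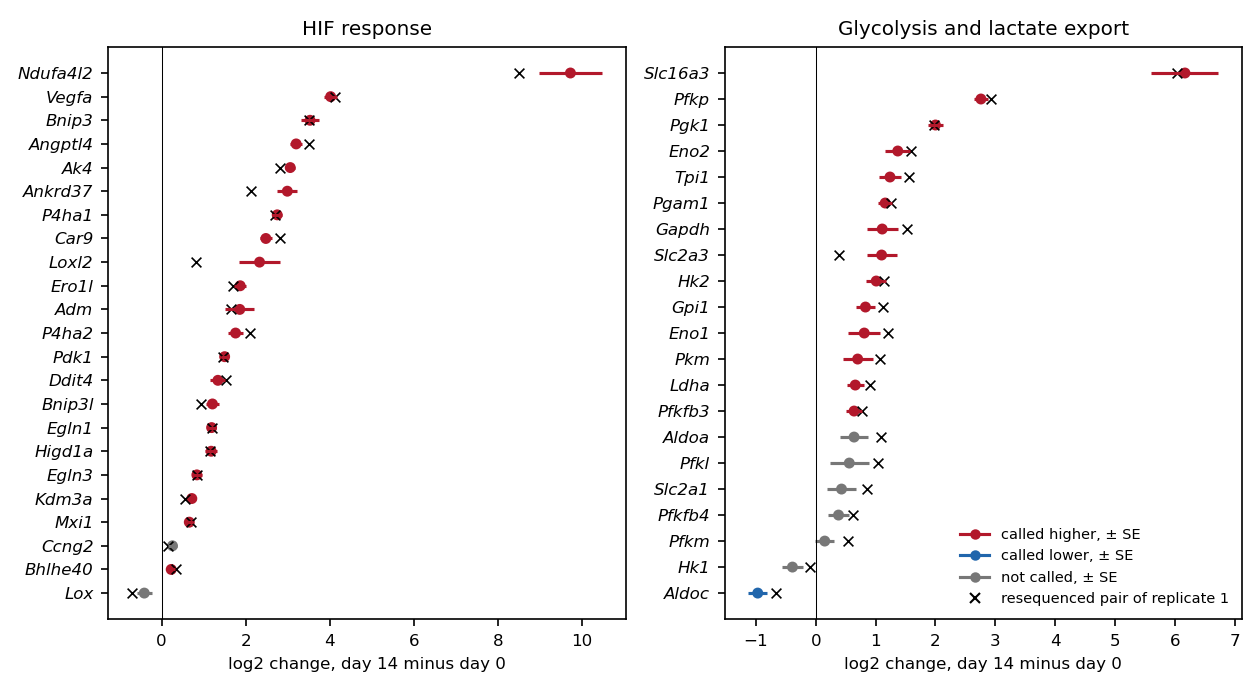
Log2 change from day 0 to day 14 with its SE for the 23 tested HIF response genes (left) and the 21 tested glycolysis genes (right); crosses are the change in the resequenced pair of replicate 1, computed with 0.5 CPM added. The HIF response runs from Ndufa4l2 at 9.72 to Lox at -0.41, and glycolysis from Slc16a3 at 6.17 to Aldoc at -0.97.

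Genes of the citrate cycle and respiratory chain showed little of this. Of 26 nuclear genes 3 rose (11.5%) and 1 fell (3.85%), against 15.2% and 15.1% of all genes. The median of the list was 0.07 (-0.02 to 0.19 under the alternatives, the lowest without day 14 replicate 2, where 5 rose and 4 fell). Cox4i2, the cytochrome oxidase subunit used at low oxygen, rose from 0.871, 0.731 and 0.862 CPM to 3.24, 5.27 and 3.51 CPM, while its usual counterpart Cox4i1 was not called (log2 0.09). Idh3a rose by 0.47 and Cox5a by 0.40, and Ogdh fell by 0.45. Cox5a lost its call in 12 and Ogdh in 7 of 16 alternatives. Of 9 mitochondrially encoded genes 6 rose, mt-Nd2 by 0.83 and mt-Nd5 by 0.67. Their levels differed between the day 14 libraries: mt-Nd2 was at 4259 and 4160 CPM in day 14 replicates 1 and 3, at 2880 CPM in replicate 2, and at 2311, 2110 and 1923 CPM at day 0. With the GC offset 6 of the 9 were called higher, and their median went from 0.57 to 0.32. Without day 14 replicate 2, 8 were called, and without replicate 1, 3.

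The remaining largest rises joined genes of several kinds. H19, an imprinted noncoding RNA of embryonic tissue (chromosome 7, 142575529 to 142578143, minus strand), went from 3.13, 4.35 and 4.61 CPM to 159, 226 and 142 CPM (log2 5.45 ± 0.24, adjusted p = 1.44e-11). Hmga2, an architectural chromatin protein of embryonic and tumour cells (chromosome 10, 120361275 to 120476469, minus strand), went from 0.124, 0.234 and 0.105 CPM to 16.9, 13.9 and 15.1 CPM (log2 6.67 ± 0.29). Its relative Hmga1 rose by 1.88. Other members of the oncofetal and imprinted list moved less or stayed near 0, and 6 of 11 tested rose and 2 fell. Igf2, the growth factor beside H19, was at most 0.0292 CPM at day 0 and at 0.255, 0.562 and 0.272 CPM at day 14. Grb10, an imprinted adaptor that restrains insulin receptor signalling, fell from 18.6, 17.3 and 17.5 CPM to 0.455, 0.351 and 0.523 CPM (log2 -5.31 ± 0.21).

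Stmn2, a microtubule-destabilising protein best known from neurons, went from 0.104, 0.117 and 0.0631 CPM to 19.4, 19.9 and 18.4 CPM (log2 7.66 ± 0.26, adjusted p = 9.32e-13). The other neuronal markers tested also rose, to low levels, with Tubb3 at 0.455, 1.83 and 0.544 CPM at day 14 and Snap25 at most 0.419 CPM. Rbfox3, Syt1 and Elavl3, further neuronal markers, did not exceed 0.0937 CPM, and the part of nerve cells in the rise of Stmn2 was not tested. Oprd1, the delta opioid receptor, had 1 count over the 3 day 0 libraries and 801 over those of day 14, a ratio of 716 after scaling with a 95% exact interval of 128 to 28327 that covers counting error only. Mgarp, a protein of mitochondrial transport, reached 8.27, 11 and 7.80 CPM, from at most 0.0841 CPM. Stra6, the receptor for the retinol carrier, reached 9.65, 24.0 and 7.49 CPM from at most 0.234 CPM. Mmp9, a gelatinase, went from 0.435, 1.20 and 0.841 CPM to 35.5, 71.7 and 30.2 CPM (log2 5.83 ± 0.46). For Stra6 and Mmp9 the highest day 14 library was replicate 2. Their groups did not overlap, which the choice of the named rises required. The other rises of the 15 were Stfa3 (7.28), a cysteine protease inhibitor, Rgs16 (5.65), a brake on G protein signalling, Tmem178 (5.60), Scel (5.32), the envelope protein sciellin, Adm2 (5.09), a peptide hormone, and Tspan32 (5.05), a tetraspanin.

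Besides Csn3, Chil1 and Ltf, the 15 largest falls held secreted, membrane and signalling proteins. Crispld2, a secreted lipopolysaccharide-binding protein (chromosome 8, 119992438 to 120052793, plus strand), went from 398, 446 and 532 CPM to 3.22, 4.41 and 3.51 CPM (log2 -6.95 ± 0.20, adjusted p = 2.10e-13). Alpl, tissue-nonspecific alkaline phosphatase, went from 242, 296 and 278 CPM to 2.46, 3.42 and 2.78 CPM (log2 -6.56 ± 0.22). Cdh19, a cadherin known from Schwann cells, went from 10.9, 8.94 and 9.40 CPM to 0.0364, 0.0469 and 0.0418 CPM. The 7 tested Schwann and glial markers, among them Sox10, held 1 that rose and 5 that fell. Their sum went from 192 to 237 CPM at day 0 to 53.2 to 64.4 CPM at day 14. Most of the day 0 sum was Sox10, at 121, 159 and 165 CPM. Sox10 was at 2.91, 6.84 and 3.28 CPM at day 14. Most of the day 14 sum was Mbp, at 47.9, 53.8 and 45.8 CPM, which was not called. The part of Schwann cells in the fall of Cdh19 was not tested. For Crispld2, Alpl and Cdh19 the day 14 libraries lay within a narrow band far below day 0, and separate groups were required for their choice. Piezo2, a channel opened by touch, fell by 7.33 and Muc20, a membrane mucin, by 6.62. Rtn1, a protein of the endoplasmic reticulum, fell by 6.58, and Ankrd1, a target of YAP, by 5.98. Lcp2, an adaptor of immune receptors, fell by 5.91, Ugt8a, which makes galactosylceramide, by 5.77, and Cmklr1, the chemerin receptor, by 5.68. Chn2, a Rac GTPase-activating protein, and Pamr1 fell by 5.67 and 5.66.

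**Figure D5:**
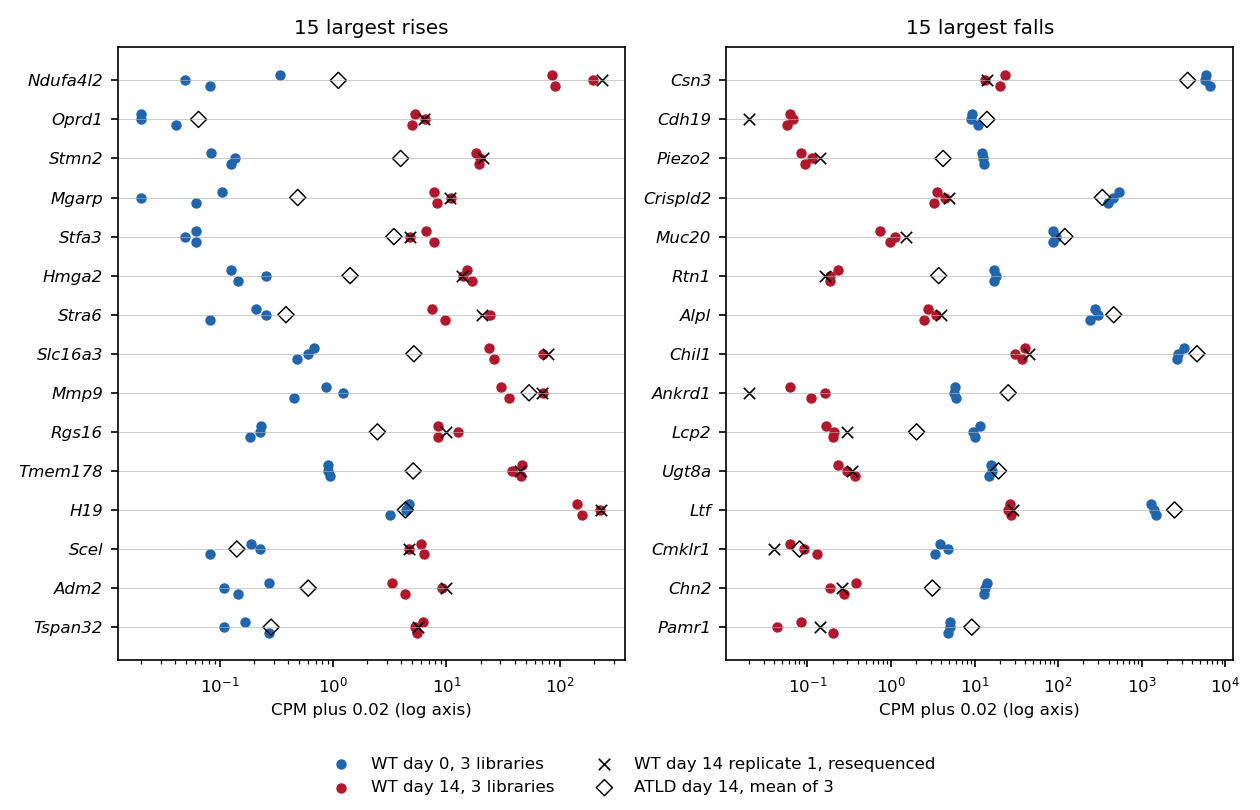
CPM plus 0.02 on a log axis for the 15 largest rises and 15 largest falls named, in the 3 day 0 (blue) and 3 day 14 (red) WT libraries, with the resequenced day 14 run (cross) and the mean of the 3 ATLD day 14 libraries (open diamond). The 2 groups of WT libraries are apart for every gene, as the choice of the genes required, and the resequenced run lies with day 14.

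Levels per length of gene, which allow different genes to be compared, were ranked among nuclear protein-coding genes only. There Eef1a1, an elongation factor gene, ranked 1 on both days, while other abundant transcripts changed. Csn3 ranked 3 at day 0 with 1453 counts per kilobase per 1000000 counts and was at 4.52 at day 14. Igfbp5, a secreted binding protein of insulin-like growth factors, ranked 2 at day 0 with 1670 and was at 216 at day 14. Spp1 was among the 10 highest at day 14 with a level per length of 1030, 853 and 959, from a mean of 104 at day 0. By the mean, Krt14, Ly6d and Krt5 ranked 2, 3 and 4 at day 14, but this order rested on replicate 2. Krt14 was at 1024, 2935 and 978, Ly6d at 872, 1992 and 850, and Krt5 at 892, 1851 and 861, and in replicates 1 and 3 Rpl4, a ribosomal protein gene, lay above them with 1152 and 1126.

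Ligands and receptors of the ERBB family changed unevenly. Of 14 tested genes 4 rose and 5 fell, and the receptors Egfr (-0.21) and Erbb3 (0.04) were not called. Ereg, epiregulin, rose from 3.46, 3.71 and 3.41 CPM to 15.6, 12.8 and 17.4 CPM (log2 2.11 ± 0.19), and Areg, amphiregulin, and Tgfa rose by 0.81 and 0.69. Nrg2, a neuregulin, fell from 18.6, 19.8 and 21.4 CPM to 1.88, 3.82 and 1.99 CPM (log2 -2.97 ± 0.23), and Btc and Nrg4 fell by 0.82 and 0.83. The receptor Erbb4 fell from at most 0.933 CPM to at most 0.146 CPM. Without day 0 replicate 2, 3 members of the list were called lower.

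Of 15 genes that ERK signalling induces and that restrain it or carry it on, 7 fell (46.7%) and 1 rose (6.67%). The shares of all genes were 15.1% and 15.2%. The median log2 change of the list was -0.22. Etv1, an ETS transcription factor, went from 39.1, 35.2 and 40.6 CPM to 1.35, 0.750 and 1.23 CPM (log2 -5.09 ± 0.20), and Spry4, an inhibitor of the pathway, from 16.7, 18.1 and 19.3 CPM to 0.583, 0.773 and 0.586 CPM (log2 -4.81 ± 0.19). Etv5 fell by 1.19, Phlda1 by 1.38 and Ier3 by 1.24. Dusp6, the ERK phosphatase, was at 382, 375 and 418 CPM and then at 345, 341 and 350 CPM, and was not called (log2 -0.18, adjusted p = 0.12), nor was Etv4 (adjusted p = 0.998). Immediate early genes were split, with 5 of 17 higher (29.4%) and 6 lower (35.3%), against 15.2% and 15.1% of all genes. Fosb fell by 2.01, Nr4a1 by 1.88, Egr2 by 1.80 and Fos by 1.26. Klf4, a transcription factor of stratified epithelium, rose from 13.5, 11 and 14.8 CPM to 48.4, 53.6 and 44.3 CPM, and Egr1 and Myc were not called (-0.03 and -0.14).

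Mitotic genes were not called at all: 0 of 20 tested G2 and mitosis genes passed the test, where 30.3% of all genes did. At an unadjusted p under 0.05, 2 of the 20 passed in edgeR, and DESeq2 called 1, which was lower. Without day 14 replicate 2 there were 5 calls in edgeR, all lower, and with the GC offset 3. Mki67, a marker of cycling cells, was at 411, 399 and 345 CPM and then at 378, 294 and 315 CPM (log2 -0.23 ± 0.17, adjusted p = 0.357), with overlapping groups. Of 19 S phase genes 5 fell (26.3%), against 15.1% of all genes. Among them were the replication genes Pole (-0.66), Gins2 (-0.68), Cdc6 (-0.54) and Cdc45 (-0.50). The count of S phase genes that fell rested on the libraries used. It was 13 without day 14 replicate 2, 2 and 1 without day 14 replicates 1 and 3, and 2, 1 and 3 without day 0 replicates 1, 2 and 3. Cdc45 lost its call in 9, Gins2 in 8 and Cdc6 in 6 of 16 alternatives. Among the G1 regulators, Ccnd2, cyclin D2, rose from 53.5, 65.3 and 57.5 CPM to 335, 356 and 336 CPM (log2 2.54 ± 0.20), while Ccnd1, cyclin D1, was at 803, 837 and 795 CPM and then at 791, 1008 and 774 CPM and was not called. Cdk6, the kinase that D cyclins activate, rose by 1.23 and Rb1, the retinoblastoma protein that it acts on, fell by 1.15. Of the 14 G1 genes 4 rose (28.6%) and 1 fell (7.14%), against 15.2% and 15.1% of all genes. Without day 14 replicate 2, 4 fell.

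Cdkn1a, the inhibitor p21 and a p53 target, rose from 60.5, 65.9 and 64.9 CPM to 165, 208 and 157 CPM (log2 1.47 ± 0.11, adjusted p = 1.76e-08). Pmaip1, the BH3 protein Noxa, rose from 3.03, 4.12 and 3.20 CPM to 23.5, 19.5 and 23.3 CPM (log2 2.69 ± 0.16), and Perp, a p53 target of desmosomes, by 1.64. Across the list of p53 targets 6 of 21 rose (28.6%) and 2 fell (9.52%), against 15.2% and 15.1% of all genes. The median was 0.10. Mdm2, at 84.0, 82.2 and 83.4 CPM and then 85.4, 82.2 and 88.4 CPM, was not called. Btg2, an antiproliferative p53 target, fell by 0.96. A fit without day 14 replicate 2 called 5 p53 targets lower. Within the BCL2 family 2 of 13 rose (15.4%) and 3 fell (23.1%), against 15.2% and 15.1% of all genes. Without day 14 replicate 2, 5 fell. Bik fell by 2.25 and Bcl2 by 0.84, and Mcl1 was not called (0.08).

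Most genes of DNA break response and repair were not called. Of 23 tested 6 fell (26.1%) and 1 rose (4.35%), against 15.1% and 15.2% of all genes. The median log2 change was -0.24. With the GC offset 12 fell, where 19.7% of all genes were called lower. Without day 0 replicate 1, 3 fell, and without day 14 replicate 2, 3 rose. Fanca, of the Fanconi anaemia core complex, fell from 25.9, 28.8 and 26.7 CPM to 8.43, 13.9 and 8.24 CPM (log2 -1.42 ± 0.18), Mdc1, which binds phosphorylated H2AX, by 0.58 and Polq, the polymerase of theta-mediated end joining, by 0.56. Xrcc5, Ku80, rose by 0.53. Rad50 and Nbn, the partners of Mre11, were not called (0.00 and 0.03).

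Interferon-stimulated genes were mixed, with 11 of 28 higher and 4 lower and a median log2 change of 0.44. Ifi27l2a rose from 0.850, 0.906 and 1.58 CPM to 5.15, 9.82 and 8.95 CPM (log2 2.82 ± 0.43), the antiviral genes Oas1a and Mx1 by 1.28 and 1.18, and the interferon signal transducer Irf9 by 0.53. Ifit2 and Rsad2 fell by 1.68 and 1.54. Isg15, a ubiquitin-like protein, was at 11.8, 11.2 and 18.3 CPM and then at 16.1, 22.5 and 22.9 CPM, with overlapping groups, and was not called (adjusted p = 0.133). Leaving out day 14 replicate 3, the median of the list was 0.23, with 9 members higher and 5 lower. In the Ifi200 family of interferon-inducible DNA-binding proteins, 6 of 8 tested rose and none fell. Ifi202b rose from 15.2, 13.8 and 14.1 CPM to 71.6, 44.6 and 70.2 CPM (log2 2.11 ± 0.17), Ifi203 by 1.40 and Ifi211 by 0.85. These genes are close paralogs, so the split of reads among them is uncertain.

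Antigen presentation genes rose in 5 of 14 cases and fell in 1. The class II genes H2-Ab1 and Cd74 rose from low levels, H2-Ab1 from 1.16, 1.02 and 1.24 CPM to 11.6, 19.3 and 12.1 CPM (log2 3.64 ± 0.26), while their activator Ciita fell by 1.42. B2m, the light chain of class I, rose by 0.75, and H2-K1 and H2-D1 were not called (-0.29 and -0.24). Without day 0 replicate 1 or 2, 3 members were called higher, and without day 14 replicate 2, 3 were called lower. Among 27 chemokines and cytokines 7 rose and 12 fell. Cxcl12, which attracts cells through CXCR4, fell from 42.8, 44.6 and 44.1 CPM to 2.73, 2.23 and 3.03 CPM (log2 -4.04 ± 0.13, adjusted p = 5.22e-13), Cxcl14 by 4.91 and Lif by 1.29. Il23a rose by 1.82 and Il1rn, the interleukin-1 receptor antagonist, by 1.60. NF-kB genes changed little, with Nfkbie (0.56), Rel (0.53) and Tnfaip3 (0.44) higher and Traf1 (-1.27) lower among 13. The shares were 23.1% higher and 7.69% lower, against 15.2% and 15.1% of all genes. Without day 14 replicate 2, 4 were lower. The median of the list was -0.02 and ranged from -0.16 to 0.24. It was above 0 without day 0 replicate 2 (0.02) or 3 (0.01) and without day 14 replicate 1 (0.07) or 3 (0.10).

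Of 22 collagen and matrix genes 1 rose (4.55%) and 4 fell (18.2%), against 15.2% and 15.1% of all genes. Fn1, fibronectin, went from 77.2, 127 and 135 CPM to 7.05, 9.40 and 6.30 CPM (log2 -3.90 ± 0.41), and Col12a1, Col9a1 and Col1a2 fell by 2.14, 1.38 and 1.24. Postn, periostin, rose from 960, 881 and 958 CPM to 2230, 1175 and 2417 CPM. The fibroblast markers fell in 3 of 6 cases tested, and their part in the matrix genes was not tested. The median of the list was -0.06, and it was 0.02 without day 0 replicate 3 and 0.07 without day 14 replicate 1 or 3. Proteases and their inhibitors moved in both directions, with 8 of 19 higher and 4 lower. Next to Mmp9, Timp1, an inhibitor of matrix metalloproteases, rose by 2.21, and the proteases Mmp13 and Adam8 rose by 2.07 each. Mmp15, a membrane-bound protease, fell by 1.83 and Timp3 by 0.97. The median was 0.10, and -0.10 without day 14 replicate 2.

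Markers of epithelial-mesenchymal transition gave no common direction. Vim, vimentin, and Snai2 rose by 0.75 and 0.76, Cdh2, N-cadherin, fell by 1.0, and Zeb1, at most 0.401 CPM, was not called. The median of the list was 0.11, and -0.06 without day 14 replicate 2. In the list of tight and gap junctions 8 of 17 fell and 3 rose, with a median of -0.85. Cldn1 fell from 111, 104 and 92.4 CPM to 27.5, 20.7 and 27.9 CPM (log2 -2.01 ± 0.14), Cldn7 by 1.56, Marveld2 by 1.30 and Cldn23 by 1.11. Among the genes that rose were the gap junction genes Gja1 (0.87) and Gjb5 (1.87).

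In the WNT pathway 8 of 20 genes rose and 6 fell. Wnt10a, a ligand, rose from 7.57, 8.88 and 8.77 CPM to 27.7, 62.8 and 26.3 CPM (log2 2.21 ± 0.27), and Axin2, a feedback inhibitor that the pathway induces, from 3.15, 3.65 and 3.55 CPM to 10.2, 20.9 and 9.08 CPM (log2 1.95 ± 0.27). For both, replicate 2 was the highest library and all day 14 libraries lay above day 0. The ligands Wnt5b and Wnt7b fell by 2.02 and 1.65. Of 15 NOTCH genes 2 rose (13.3%) and 5 fell (33.3%), against 15.2% and 15.1% of all genes. The ligand Jag1 rose by 1.17, while the target genes Hey2 and Hey1 fell by 3.21 and 1.17 and Dtx1 by 1.13. Of 17 genes of TGF-beta, BMP and YAP signalling 10 fell and 3 rose, with a median of -0.60. Tgfb2 fell from 47.2, 43.8 and 40.5 CPM to 4.70, 4.59 and 4.94 CPM (log2 -3.21 ± 0.13), Tgfb3 by 2.20, and Id3, a target of BMP, by 2.65. Bmp7 rose by 1.5.

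Lipid and stress genes moved little as groups. Cholesterol synthesis had 6 of 18 genes higher (33.3%) and 4 lower (22.2%), against 15.2% and 15.1% of all genes. Idi1 was higher by 1.5, and Dhcr7 and Insig1 were lower by log2 values of -1.18 and -1.11. The counts of higher and lower genes were 3 and 2 without day 14 replicate 1. They were the same without replicate 3, and 8 and 8 without replicate 2. Without any 1 of the day 0 libraries 2 were lower. Fatty acid synthesis had 4 of 10 lower and none higher, and Fasn, the synthase, overlapped between groups (334, 432 and 432 CPM against 132, 357 and 130 CPM, log2 -0.95, adjusted p = 0.0343). Of 17 genes of the unfolded protein and integrated stress responses 6 fell and 1, Phgdh, rose by 1.29. Leaving out any 1 library other than day 14 replicate 2 brought the falls to 2 or 3. Targets of NRF2, the regulator of antioxidant genes, were higher in 6 of 13 cases. Gsta4, a glutathione transferase, rose from 8.81, 10.2 and 8.27 CPM to 103, 90.6 and 95.9 CPM (log2 3.41 ± 0.16), Slc7a11, the cystine importer, by 2.33 and Gpx2 by 1.74, while Txnrd1 fell by 0.69 and Hmox1 was not called (0.24). Of the targets, 3 were lower without day 14 replicate 2.

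Among the aldehyde dehydrogenases 6 of 13 rose and 4 fell. Aldh1a3, the retinaldehyde dehydrogenase of luminal progenitors, went from 345, 381 and 374 CPM to 58.9, 61.6 and 62.5 CPM (log2 -2.59 ± 0.10), while Aldh1a1 went from 18.1, 15.5 and 14.1 CPM to 104, 82.5 and 96.4 CPM (log2 2.57 ± 0.15). Groups were well apart for both genes. Of 9 mineral and bone matrix genes 5 rose and 2 fell: beside Spp1 and Alpl, Runx2, the transcription factor of bone, rose by 1.40 and Mgp, matrix Gla protein, by 1.18. Cytosolic ribosomal protein genes were called higher in 5 of 25 cases (20%, against 15.2% of all genes), with Rpl7, Rpl5, Rpl23 and Rps4x between 0.49 and 0.65. Their median was 0.18 and lay between -0.09, without day 14 replicate 2, and 0.55 under the alternatives.

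The STAT core TTCNNNGAA, bound by STAT5 below the prolactin receptor, was in the window of 2 of 10 milk genes that had one (20%) and of 825 of the 12106 tested genes (6.81%), and in none of 7 luminal progenitor genes. Csn1s1, with its fall of 4.40, is shown as the milk gene example. The 250 bases before its start, chr5:87665958-87666207 (plus strand, GRCm38.p6), hold the match in capitals.
Csn1s1: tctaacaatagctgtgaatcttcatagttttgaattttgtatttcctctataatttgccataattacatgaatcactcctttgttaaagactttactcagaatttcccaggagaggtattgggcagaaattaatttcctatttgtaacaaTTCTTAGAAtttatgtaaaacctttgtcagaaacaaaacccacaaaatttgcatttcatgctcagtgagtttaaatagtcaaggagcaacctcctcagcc

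The same days were measured in ATLD organoids, and the change in WT organoids was compared with the change in ATLD organoids by the interaction term of the fit. Over all genes, 3988 of 18684 (21.3%) passed an adjusted p under 0.05, and 5116 (27.4%) with the GC offset. The ATLD libraries were sequenced in another batch than the WT libraries used here. Each change is taken within 1 genotype, which does not remove the GC trend of the WT day 14 libraries (-0.995, 0.564 and -0.969). The part of the batch in the differences was not tested. Of the 30 largest rises and falls, which were chosen for their change in WT organoids, 29 passed, and Mmp9 did not. In ATLD organoids Mmp9 went from 1.37 ± 0.886 to 53.6 ± 3.05 CPM (SD, n = 3), and the difference of the changes was 0.55 ± 0.59 (adjusted p = 0.586). Csn3 was at 4850 ± 866 and 3534 ± 516 CPM in ATLD organoids, and Chil1 at 4530 ± 728 and 4573 ± 573 CPM. H19 was at 4.70 ± 0.689 and 4.32 ± 1.16 CPM, near its WT level at day 0. Stra6 went from 7.07 ± 1.07 to 0.363 ± 0.176 CPM there, in the direction opposite to WT.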

How the data were processed

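RNA was captured by poly(A) and made into stranded libraries, per the labels' protocols. The authors deposited 1 table of raw read counts per gene with the gene length in bases, a value of another kind, that featureCounts gave. The build mm10 and the tools featureCounts and DESeq2 come from the submitters' processing notes. No source used here gives the aligner or the strand setting of the counting, so overlapping and antisense genes are uncertain. All 55536 gene IDs matched GENCODE annotation by ID, start and end, and 55450 of them had a GC content.

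The 18 original libraries of the 6 groups were fitted together in edgeR 4.0.16 (R 4.3.3, limma 3.58.1) by the quasi-likelihood test, with TMM scaling, 12 residual degrees of freedom, and genes kept by a minimum count of 10 and a minimum total of 15. P-values were adjusted by the Benjamini-Hochberg method over all 18684 genes tested, and genes with an adjusted p under 0.05 were called. Errors of log2 changes are standard errors. The GC offset is a lowess curve (span 0.3) per library. Promoter sequences are from RefSeq. The alternatives were other size factors, no filter, DESeq2 1.42.0, the 6 libraries alone, leaving out each library, a replicate block, offsets for GC and length, and the resequenced runs. Day 14 replicate 2 as the only day 14 library was added after seeing the data.

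The members and gene lists were chosen with earlier results of these data known. The genes named are Erbb2 and Mre11a, epithelial markers, and the 15 largest rises and 15 largest falls among eligible called genes. Eligible genes had separate groups, a log2 CPM averaging 1 or more and no predicted or pseudogene symbol. The 10 highest levels per length among nuclear protein-coding genes are also named. In each list up to 4 called members with the largest changes are named. Other members named were chosen after their values were seen.

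Counts were simulated over 18684 genes with the GC trend of the libraries. The fit without offset recovered 40.0% of genes changed by 2-fold and 82.0% of those changed by 4-fold. Only 100 genes were changed by each size, against 5666 genes called in the data. The simulated scatter came from the fit without offset, which already held the GC trend. These shares are therefore no estimate of the recovery in the data. Deviations from the mean of the day, compared over genes between same-numbered replicates of the 2 days, correlated at 0.413, 0.249 and -0.236. With the GC trend removed they correlated at 0.159, 0.142 and -0.0592. Day 0 replicate 1 with day 14 replicate 3 had 0.429 before that removal. These values cannot settle whether the numbers pair the samples, and the numbers were not taken as pairs.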

Additional observations from a re-analysis of the deposited data

Results flagged for a closer look

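For 29 of the 30 largest rises and falls, the change from day 0 to day 14 in WT organoids differed from that in ATLD organoids by the interaction term in edgeR's quasi-likelihood test, at an adjusted p under 0.05 over all genes. All values are WT log2 change minus ATLD log2 change. The genes were chosen for their change in WT organoids, which favours a difference.

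Among the rises, the difference was 10.71 for Stra6, 9.31 for Ndufa4l2 and 8.0 for Stmn2. It was 7.93 for Hmga2, 7.32 for Stfa3 and 6.60 for Scel. Mgarp had 6.55, H19 5.57, Adm2 5.52 and Slc16a3 5.39. For Rgs16 it was 4.94, for Tmem178 4.77 and for Tspan32 4.46. Oprd1 had 7.58 ± 1.92 (adjusted p = 0.00787), a value that depends on the prior count since WT day 0 held 1 count.

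Among the falls, the difference was -7.87 for Csn3, -7.51 for Cdh19 and -7.35 for Piezo2. It was -6.50 for Alpl, -6.43 for Crispld2, -6.40 for Rtn1 and -6.33 for Chil1. Chn2 had -5.93, Muc20 -5.86, Ankrd1 -5.77 and Ugt8a -5.55. For Lcp2 it was -5.46, for Cmklr1 -5.42, for Pamr1 -4.67 and for Ltf -4.39. Stmn2, Stfa3 and Hmga2 were already at 4.96, 3.52 and 3.34 CPM on average in ATLD organoids at day 0.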

How the results depend on the processing

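Of 5666 calls and 2831 calls of at least 2-fold, other settings gave 3792 to 8242 and 2459 to 3418. Leaving out 1 library gave 4456 to 8242 and 2646 to 3418 calls, with the highest of both without day 14 replicate 2. There 44.5% of the calls were higher, against 50.1%. The replicate block gave 4530 and 2681 calls, of which 4512 and 2669 were shared, and the block with the GC offset 5900 and 2828. The GC offset alone gave 6879 and 2906, with GC and length 7293 and 2943, the resequenced runs 5035 and 2762, and day 14 replicate 2 alone, an alternative added after seeing the data in which that library is assumed to vary like the other groups, 3792 and 2615. The 15 rises and 15 falls kept direction and call in all 480 recomputed values. They were chosen for large called changes and separate groups in the same libraries, which makes this outcome likely beforehand. Of 2912 values for 182 named genes, 140 lost the call, and 9 turned direction, all of genes that were not called. Epcam (0.01) had -0.003 without the filter, -0.03 in the 6 libraries alone, -0.0041 with the resequenced runs and -0.04 to 0.05 with 1 library left out. With 1 library left out, Erbb2 (0.06) ran from -0.34 to 0.24 and Mre11a (-0.03) from -0.07 to 0.05. The cause was not tested. Without day 14 replicate 2, Erbb2 was at -0.34. The difference from ATLD was called for 29 of 30 genes under each of 3 alternatives. With 1 count at day 0, depth limits the ratio of Oprd1 to an interval of 128 to 28327.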

Other observations

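Lyz2, a lysozyme of macrophages, was at 4.71, 9.0 and 4.23 CPM at day 0 and 5.37, 4.48 and 5.08 CPM at day 14, and Sftpc, a surfactant protein of the lung, at 4.75, 10.5 and 4.50 CPM and then at 5.74, 4.19 and 5.25 CPM. In both genes day 0 replicate 2 was the highest library. The resequenced runs of replicate 1 held far less, 0.0397 CPM of Lyz2 at day 0 and 0.0402 CPM at day 14, and 0.516 and 0.181 CPM of Sftpc. In ATLD organoids the means were 0.022 and 0.0303 CPM for Lyz2 and 0.0728 and 0.0369 CPM for Sftpc. The cause was not tested. Endothelial markers summed to 5.33 to 5.78 CPM at day 0 and 5.38 to 6.48 CPM at day 14, and erythroid markers to 2.07 to 2.43 CPM and then 0.703 to 0.899 CPM.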
